A study of Homo sapiens with 12 samples.

Results

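The TAM receptor tyrosine kinases AXL, MERTK and TYRO3 and their ligands GAS6 and PROS1 were followed in sunitinib-resistant and parental clear cell renal cell carcinoma (ccRCC) cell lines. These 5 genes were taken by symbol from the 45478 genes of the deposited count table, and all 5 passed the filter on low counts that left 19929 genes for testing. mRNA was sequenced from 4 groups with 3 libraries each. Parental 786-O and A498 are established ccRCC lines that lack a functional VHL gene, and the bare names stand for them. Their sunitinib-resistant derivatives, named here resistant 786-O and resistant A498, had been kept in 4 μM and 2 μM sunitinib, respectively, over 4 months or more than 20 passages. Sunitinib inhibits the VEGF and PDGF receptor kinases. Each resistant line was a single named culture, the sample records give no drug treatment at harvest, and whether the 3 libraries of a group came from separate cultures was not stated, so that p-values measure only the spread between these libraries. The study had examined Axl as one of the signalling proteins of resistant cells and as a drug target, and the question asked here was how the mRNAs of the receptor family and its ligands differed between the groups.

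TAM receptors recognise cells that expose the lipid phosphatidylserine. GAS6 and PROS1 (protein S) are secreted bridging proteins: their N-terminal Gla domain, which must be carboxylated with the help of vitamin K, binds phosphatidylserine, and their C-terminal domain binds the receptor. GAS6 activates all 3 receptors, whereas PROS1 acts on MERTK and TYRO3 and is also a cofactor of the anticoagulant protein C. In phagocytes the receptors drive the clearance of apoptotic cells and dampen cytokine responses, and in carcinoma AXL is known for its association with invasion and with resistance to kinase inhibitors. In VHL-deficient renal cancer, AXL and GAS6 have been studied as parts of a hypoxia-inducible factor (HIF) response.

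In the GENCODE version 44 annotation of GRCh38, all 5 genes are protein coding. AXL is at chr19:41219223-41261766 on the plus strand, MERTK at chr2:111898607-112029561 on the plus strand, TYRO3 at chr15:41557675-41583589 on the plus strand, GAS6 at chr13:113820549-113864076 on the minus strand and PROS1 at chr3:93873051-93980003 on the minus strand. The 250 bases before the RefSeq starts of AXL and GAS6 (GRCh38.p14) are shown because these are the receptor and the ligand of the family with the highest levels here. Promoter entries were matched for 5 of 5 genes. Capitals mark matches on either strand to the GC box (GGGCGG), the AP-1 motif (TGANTCA), the HIF core (ACGTG or GCGTG) and the TEAD motif (GGAATG). Each sequence is written 5′ to 3′ on the strand of its gene. AXL has a start at the 5′ end of the gene (window chr19:41218973-41219222, plus strand) and another within it (window chr19:41226505-41226754, plus strand, intronic in the full-length transcripts), and the GAS6 window is chr13:113864077-113864326 on the minus strand.
AXL start 1: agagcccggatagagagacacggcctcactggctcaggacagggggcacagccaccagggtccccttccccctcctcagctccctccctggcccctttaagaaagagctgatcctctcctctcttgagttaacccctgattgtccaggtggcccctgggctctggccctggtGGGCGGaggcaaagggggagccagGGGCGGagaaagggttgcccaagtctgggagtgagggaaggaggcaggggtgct
AXL start 2: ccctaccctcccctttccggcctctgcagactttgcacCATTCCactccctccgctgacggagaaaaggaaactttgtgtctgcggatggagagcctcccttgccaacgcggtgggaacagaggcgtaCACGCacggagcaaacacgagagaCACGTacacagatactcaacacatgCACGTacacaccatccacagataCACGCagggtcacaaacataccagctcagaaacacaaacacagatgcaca
GAS6: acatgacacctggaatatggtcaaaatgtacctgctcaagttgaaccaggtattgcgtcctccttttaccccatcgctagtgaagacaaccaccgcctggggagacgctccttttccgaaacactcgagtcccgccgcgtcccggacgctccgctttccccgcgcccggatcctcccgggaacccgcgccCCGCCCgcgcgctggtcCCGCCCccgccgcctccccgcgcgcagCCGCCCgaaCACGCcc
The first AXL window holds 2 GC boxes, at -78 and -54 from the start, and is 64.4% G and C. The second holds 4 HIF cores, at -122, -98, -73 and -50, and 1 TEAD motif at -212, all on the opposite strand, with no GC box. The GAS6 window holds 3 GC boxes, at -60, -43 and -16, and 1 HIF core at -7, and most of it lies over the divergent long noncoding RNA GAS6-DT. Of the other members, the MERTK window holds 4 GC boxes, the first TYRO3 window 3 GC boxes and 1 AP-1 motif, the second TYRO3 window 1 HIF core, and the PROS1 window 2 GC boxes. Among 35116 promoter windows of the same length, 42.6% hold a GC box, 43.2% a HIF core, 11.9% a TEAD motif and 6.57% an AP-1 motif. These matches describe letters, not bound sites, and counts per gene cannot tell which AXL start was used.

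Library totals ran from 40845091 to 47972092 counts in 786-O, 42643735 to 46888482 in resistant 786-O, 21686648 to 34951585 in A498 and 20042519 to 25831163 in resistant A498. The sample records carry a batch identifier, of unstated meaning, that is different for each group, and batch and group cannot be told apart. The libraries labelled resistant A498 went against their label: 62 genes at 10 CPM or more (counts scaled to the library size after TMM normalisation) in A498 and at no more than 3 counts in each 786-O library had a median level in resistant A498 of 0.362% of that in A498, and 33 genes with the opposite pattern stood at 94.6% of their 786-O level in resistant A498. Results for resistant A498 are therefore given against both parental lines. Replicate 2 of resistant 786-O stood apart, with an SD of 0.295 for its log2 deviations from the other replicates over 10085 genes, against 0.0748 to 0.176 in the other 11 libraries. T cell markers were near 0 in all groups (0 of 9 genes over 1 CPM, summed level 0.110 to 0.612 CPM, with most at or under 3 counts), and macrophage markers, relevant because macrophages express MERTK, summed to 0.783 to 2.66 CPM. Of 11 renal tubule and ccRCC markers, 9 or 10 exceeded 1 CPM in each group, while the ccRCC marker NDUFA4L2 stayed below 0.573 CPM on average in each group and CA9 was at 0 to 2 counts in 786-O, resistant 786-O and resistant A498 libraries and at 23 to 54 counts in A498 libraries. Fibroblast markers summed to 51.1 to 62.9 CPM in A498, most of it COL1A1, and to 7.11 to 27.8 CPM in the other groups. The part of these markers in the results was not tested. In mRNA from whole cultures, more RNA per cell and more expressing cells cannot be told apart.

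Per kilobase of exon, AXL was the most abundant of the 5 mRNAs in every library. Its level was 563, 563 and 565 CPM in the 3 libraries of 786-O and 779, 574 and 807 CPM in those of resistant 786-O. It was 219, 226 and 225 CPM in A498 and 754, 739 and 735 CPM in resistant A498. All libraries of both resistant lines were thus above all libraries of both parental lines, although resistant 786-O replicate 2 lay only just above 786-O. On that scale it stood at the 98.0th percentile of the genes tested in 786-O, the 98.8th in resistant 786-O, the 94.4th in A498 and the 98.8th in resistant A498. In order of level, A498 was lowest, followed by 786-O, while resistant 786-O (720 ± 128 CPM, SD, n = 3) and resistant A498 (742 ± 10.2 CPM, SD, n = 3) did not differ beyond their spread (log2 fold change 0.04, 95% interval -0.14 to 0.23).

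**Figure D1:**
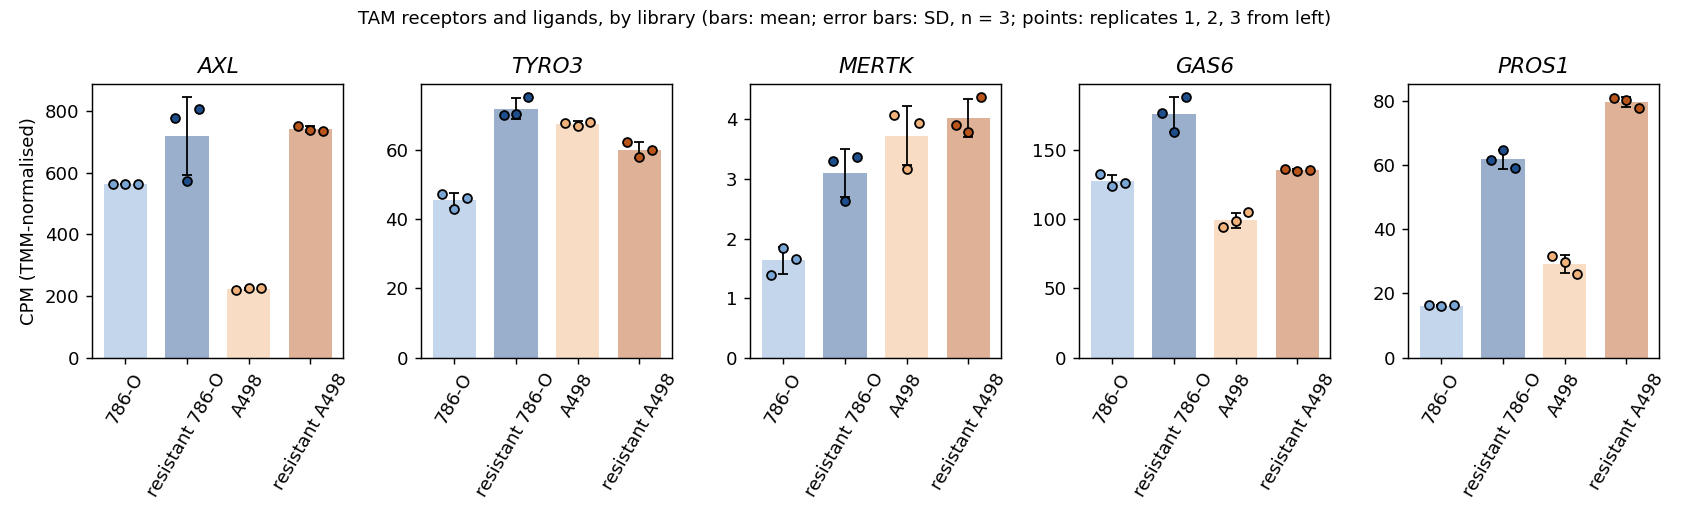
Level of each of the 5 genes in CPM (y axis, linear, from 0, with its own range for each gene) in 786-O, resistant 786-O, A498 and resistant A498 (x axis); bars are means, error bars SD of 3 libraries and points the libraries. AXL is near 564 CPM in 786-O and 223 CPM in A498 and at 574 CPM or more in each library of both resistant lines, and PROS1 rises from 16.2 CPM in 786-O to 61.8 CPM in resistant 786-O.

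Compared to parental 786-O, AXL was higher in resistant 786-O by a log2 fold change of 0.35 (SE 0.09, 1.28-fold, Benjamini-Hochberg adjusted p = 0.00245 by the edgeR quasi-likelihood test). It was among the 5 of 5 members called higher in this comparison, in which 35% of the 19929 genes tested were called higher and 33.5% lower. The libraries of the groups did not overlap for any of the 5 members, as for the 34.5% of all genes that lay higher in every library of resistant 786-O. The AXL difference varied most with replicate 2 of resistant 786-O: without that library it was 0.49, and over all libraries left out in turn it ranged from 0.28 to 0.49. After correction for GC content and gene length it was 0.08 and no longer called.

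In the libraries labelled resistant A498, AXL was 3.33-fold higher than in A498 (log2 fold change 1.73, SE 0.09, adjusted p = 1.84e-10, edgeR), and 36.3% of genes were called higher in this comparison and 36.4% lower. The libraries did not overlap for 4 of the 5 members here, against 78.5% of all genes. Against 786-O the same libraries were 1.32-fold higher (log2 fold change 0.40, SE 0.09, adjusted p = 0.00112), where 31.6% of genes were called higher and 32.1% lower. All 5 members lay higher in every library of resistant A498 than of parental 786-O, as did 36.2% of all genes. AXL differed between the parental lines themselves, with 786-O 2.53-fold above A498 (log2 fold change 1.34, adjusted p = 2.74e-09), as 74.2% of genes did in either direction. The 2 comparisons with 786-O share its libraries, and the value against A498 contains the difference between the parental lines.

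The gene ENSG00000269652, a long noncoding RNA on the opposite strand within AXL (chr19:41221426-41222051), shares 67 exonic bases with it, which is 1.31% of the AXL exon bases and 23.4% of its own. Its counts amounted to 3.50% to 3.64% of those of AXL in 786-O libraries, 4.42% to 5.13% in resistant 786-O, 3.30% to 3.75% in A498 and 4.33% to 4.46% in resistant A498. They moved in the direction of AXL, with log2 fold changes of 0.78 in resistant 786-O against parental 786-O. In resistant A498 the values were 2.06 against A498 and 0.70 against parental 786-O. A stranded kit and a strand setting are stated for the counting, but whether reads from the opposite strands were separated here was not tested.

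MERTK, the TAM receptor best known from macrophages and the retinal pigment epithelium, was the least abundant member per kilobase of exon, at 53 to 162 counts per library. Its level was 1.39, 1.84 and 1.66 CPM in 786-O and 3.31, 2.63 and 3.37 CPM in resistant 786-O. In A498 it was 4.08, 3.16 and 3.94 CPM, and in resistant A498 3.91, 3.78 and 4.38 CPM. All 3 libraries of 786-O were below all other libraries, whereas the ranges of A498 and resistant A498 overlapped, as did those of resistant 786-O and A498. Per kilobase of exon, MERTK lay between the 25.6th and the 34.8th percentile of the genes tested in the 4 groups. MERTK was 1.90-fold higher in resistant 786-O than in parental 786-O (log2 fold change 0.93, SE 0.15, adjusted p = 5.93e-05) and 2.47-fold higher in resistant A498 than in parental 786-O (log2 fold change 1.30, SE 0.15, adjusted p = 3.08e-06). No difference was detected between resistant A498 and A498 (log2 fold change 0.10, 95% interval -0.21 to 0.41, adjusted p = 0.549), and 786-O was lower than A498 by 1.20 on the log2 scale (value -1.20, adjusted p = 4.12e-06). The sum of the macrophage markers was 0.984 to 1.31 CPM in resistant 786-O and 0.783 to 1.13 CPM in resistant A498, against 1.93 to 2.66 CPM in 786-O and 1.94 to 2.32 CPM in A498. Of its 8 genes, 3 were tested, and against parental 786-O they went both ways in both resistant lines: CSF1R fell (log2 fold changes -2.62 and -2.85), CD14 rose (1.05 and 1.23) and CD68 was not called (0.37 and -0.61). The other genes of that list, CD163, MRC1, TYROBP, AIF1 and LYZ, had 0 to 4 counts in each library. PTPRC, from the T cell list, had 0 to 3. Any part of macrophages in the MERTK values of these cell lines was not tested.

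TYRO3, the receptor of the family most studied in the nervous system, lay between AXL and MERTK per kilobase of exon in every group. It was found at 47.2, 43.0 and 46.0 CPM in 786-O and at 69.9, 70.4 and 75.3 CPM in resistant 786-O. The libraries of A498 had 67.7, 66.7 and 68.1 CPM, and those of resistant A498 62.3, 57.8 and 59.9 CPM. No groups overlapped, and their order was 786-O, resistant A498, A498 and resistant 786-O. TYRO3 was 1.58-fold higher in resistant 786-O than in parental 786-O (log2 fold change 0.66, SE 0.05, adjusted p = 2.58e-08) and 1.32-fold higher in resistant A498 than in parental 786-O (log2 fold change 0.40, SE 0.05, adjusted p = 7.45e-06). Against A498 the direction was the opposite, with resistant A498 lower (log2 fold change -0.17, SE 0.05, adjusted p = 0.00828). This small decrease was lost under several alternatives, among them scaling by library size alone (-0.10). The pseudogene TYRO3P had 0 to 4 counts per library.

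GAS6 was the more abundant ligand per kilobase of exon in every library. Its level was 132, 123 and 126 CPM in 786-O and 176, 162 and 188 CPM in resistant 786-O. It was 94.0, 98.8 and 105 CPM in A498 and 136, 135 and 135 CPM in resistant A498. The resistant libraries were above those of the labelled parental line in both pairs, whereas resistant A498 lay only just above 786-O. GAS6 was 1.38-fold higher in resistant 786-O than in parental 786-O (log2 fold change 0.47, SE 0.06, adjusted p = 3.12e-06) and 1.36-fold higher in resistant A498 than in A498 (log2 fold change 0.45, SE 0.06, adjusted p = 4.36e-06). After correction for GC content and gene length, the value in resistant 786-O was -0.02 and no longer called (adjusted p = 0.741). Against 786-O the resistant A498 difference was not called (log2 fold change 0.09, 95% interval -0.03 to 0.21, adjusted p = 0.180), and 786-O exceeded A498 by 0.36 on the log2 scale (adjusted p = 3.74e-05).

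GAS6 overlaps the antisense RNA GAS6-AS1 (chr13:113815630-113845744, plus strand) over 421 exonic bases, 7.00% of the GAS6 exon bases. GAS6-AS1 was at 31.0 ± 1.25 CPM in 786-O, 51.4 ± 2.71 in resistant 786-O, 30.3 ± 1.08 in A498 and 37.5 ± 0.947 in resistant A498 (SD, n = 3). It rose in resistant 786-O against parental 786-O (log2 fold change 0.73, adjusted p = 1.89e-08), in resistant A498 against A498 (0.31, adjusted p = 0.000188) and in resistant A498 against parental 786-O (0.28, adjusted p = 0.000555). The divergent GAS6-DT (chr13:113864112-113866834, plus strand), which starts next to the GAS6 start, had 27 to 126 counts per library. It rose in resistant 786-O against parental 786-O (0.61, adjusted p = 0.00116) and fell in resistant A498 against A498 (-0.76, adjusted p = 0.000359). In resistant A498 against parental 786-O it was not called (0.05, adjusted p = 0.809). Counts of GAS6 and GAS6-AS1 over the shared bases are uncertain for the same reason as those of AXL.

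PROS1 showed the largest change of the 5 genes in both comparisons with 786-O. Its level was 16.4, 16.0 and 16.3 CPM in 786-O and 61.8, 64.7 and 59.0 CPM in resistant 786-O. It was 31.6, 29.8 and 26.2 CPM in A498 and 81.0, 80.2 and 77.8 CPM in resistant A498. No groups overlapped, and each resistant line exceeded both parental lines. PROS1 was 3.81-fold higher in resistant 786-O than in parental 786-O (log2 fold change 1.93, SE 0.07, adjusted p = 3.32e-12). In resistant A498 it was 2.72-fold higher than in A498 (log2 fold change 1.45, SE 0.06, adjusted p = 2.57e-11) and 4.91-fold higher than in parental 786-O (log2 fold change 2.30, SE 0.07, adjusted p = 5.78e-13). Per kilobase of exon, PROS1 went from the 54.3rd percentile of the genes tested in 786-O to the 79.5th in resistant 786-O, and from the 65.3rd in A498 to the 83.7th in resistant A498. A higher log2 fold change than that of PROS1 was found for 1541 of the 19929 genes in resistant 786-O against parental 786-O. The pseudogene PROS2P, a near copy of PROS1, had 0 or 1 count in each library.

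**Figure D2:**
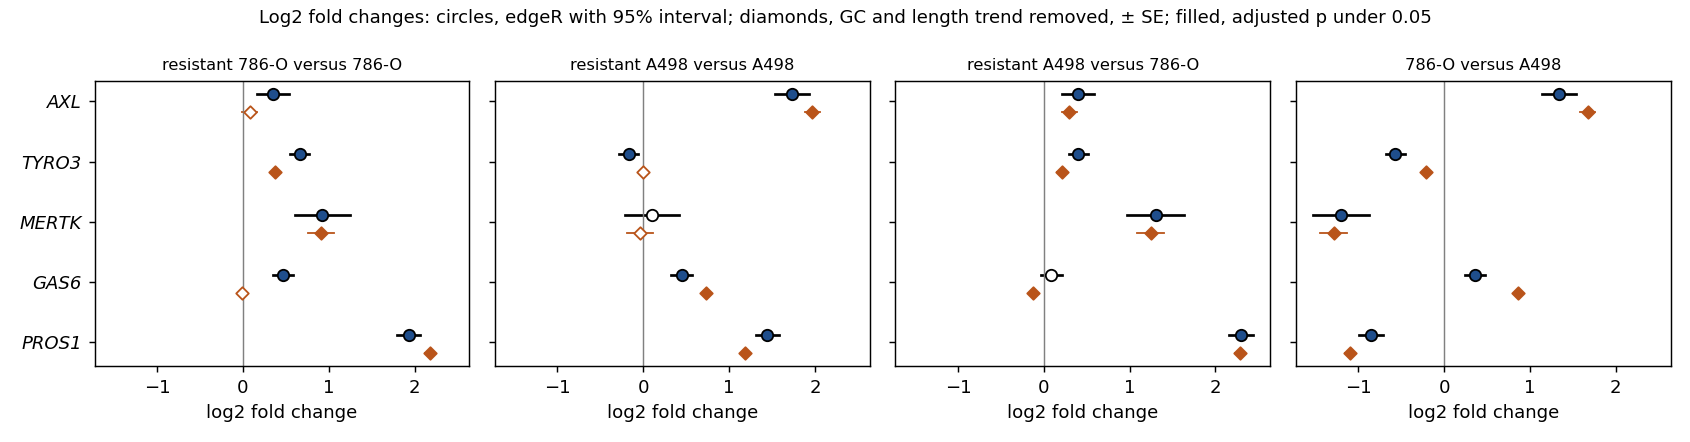
Log2 fold change (x axis) of each of the 5 genes (y axis) in each comparison (panels); circles give the edgeR estimate with its 95% interval, diamonds the estimate ± SE after removal of the GC and length trend, and filled symbols an adjusted p under 0.05. PROS1 lies between 1.45 and 2.30 in the comparisons of resistant with parental lines, while AXL lies at 1.73 against A498 and at 0.35 and 0.40 against parental 786-O.

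Whether the changes of the 2 resistant lines differed was tested directly, as resistant A498 minus A498 less resistant 786-O minus 786-O. The AXL change was larger in resistant A498 by 1.38 on the log2 scale (SE 0.13, adjusted p = 1.40e-07). The changes of MERTK (-0.83, SE 0.21, adjusted p = 0.00269), TYRO3 (-0.83, SE 0.07, adjusted p = 8.62e-08) and PROS1 (-0.48, SE 0.09, adjusted p = 0.000225) were smaller in resistant A498. No difference was detected for GAS6 (-0.02, 95% interval -0.19 to 0.15, adjusted p = 0.867), but after correction for GC content and gene length the GAS6 change was larger in resistant A498 by 0.75 (adjusted p = 3.17e-08). With the same correction the TYRO3 difference was -0.38 and the PROS1 difference -0.99, both called. Over all genes tested, 68.3% had a called difference. Since resistant A498 libraries carried 786-O levels of genes that separate the parental lines, this contrast also holds the difference between 786-O and A498. Compared directly with resistant 786-O, resistant A498 had more MERTK (log2 fold change 0.38, adjusted p = 0.0425) and PROS1 (0.37, adjusted p = 0.000196) and less TYRO3 (-0.26, adjusted p = 0.000771) and GAS6 (-0.38, adjusted p = 8.16e-05), against a background of 46.1% of genes called; the MERTK call was lost by DESeq2 (0.39, adjusted p = 0.0550), without a count filter, with only these groups fitted and without any of 6 single libraries (0.27 without resistant 786-O replicate 2). After correction for GC content and gene length, the PROS1 difference was 0.11 and the MERTK difference 0.33, neither called (adjusted p = 0.110 and 0.0813), and that of GAS6 was -0.11 (adjusted p = 0.0379).

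The balance of the receptors and of the ligands was compared on levels per kilobase of exon, without correction for GC content and gene length. AXL made up 96.0% ± 0.124 of the summed receptor level in 786-O, 94.9% ± 0.799 in resistant 786-O, 85.8% ± 0.472 in A498 and 95.7% ± 0.128 in resistant A498 (SD, n = 3). The ratio of AXL to TYRO3 was 26.1 ± 1.25 in 786-O, 21.0 ± 3.41 in resistant 786-O, 6.94 ± 0.166 in A498 and 26.0 ± 0.739 in resistant A498. AXL thus dominated the receptors in every group, least so in A498, and the ratio in resistant A498 did not differ from that in 786-O beyond the spread between libraries. With coding length in place of exon length the ratios of AXL to TYRO3 were lower, at 12.9, 10.3, 3.42 and 12.8, in the same order of groups.

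GAS6 exceeded PROS1 per kilobase by a factor of 6.87 ± 0.177 in 786-O, 2.50 ± 0.295 in resistant 786-O, 3.00 ± 0.463 in A498 and 1.49 ± 0.0284 in resistant A498 (SD, n = 3). The share of GAS6 in the summed ligand level fell accordingly, from 87.3% ± 0.282 in 786-O to 71.3% ± 2.43 in resistant 786-O and from 74.8% ± 2.82 in A498 to 59.8% ± 0.456 in resistant A498. The shares in resistant A498 lay below those of all other libraries and the shares in resistant 786-O below those of 786-O, while resistant 786-O (68.8% to 73.6%) and A498 (72.2% to 77.8%) overlapped. With coding length the ratios of GAS6 to PROS1 were 8.86, 3.22, 3.87 and 1.92. The summed receptors over the summed ligands stood at 4.73 ± 0.150 in 786-O, 3.60 ± 0.495 in resistant 786-O, 2.30 ± 0.0146 in A498 and 4.02 ± 0.0279 in resistant A498. This ratio was lower in resistant 786-O than in parental 786-O. In resistant A498 it was higher than in A498 but lower than in parental 786-O (3.99 to 4.04 against 4.56 to 4.84 by library). With 3 libraries in each group, no test was run on these ratios. The ratios and shares are without correction for GC content and gene length, and their size depends on it. After that correction, GAS6 was at 157 CPM in 786-O, 155 in resistant 786-O, 86.0 in A498 and 143 in resistant A498. PROS1 was then at 14.9, 67.5, 31.8 and 72.7 CPM in the same order of groups.

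**Figure D3:**
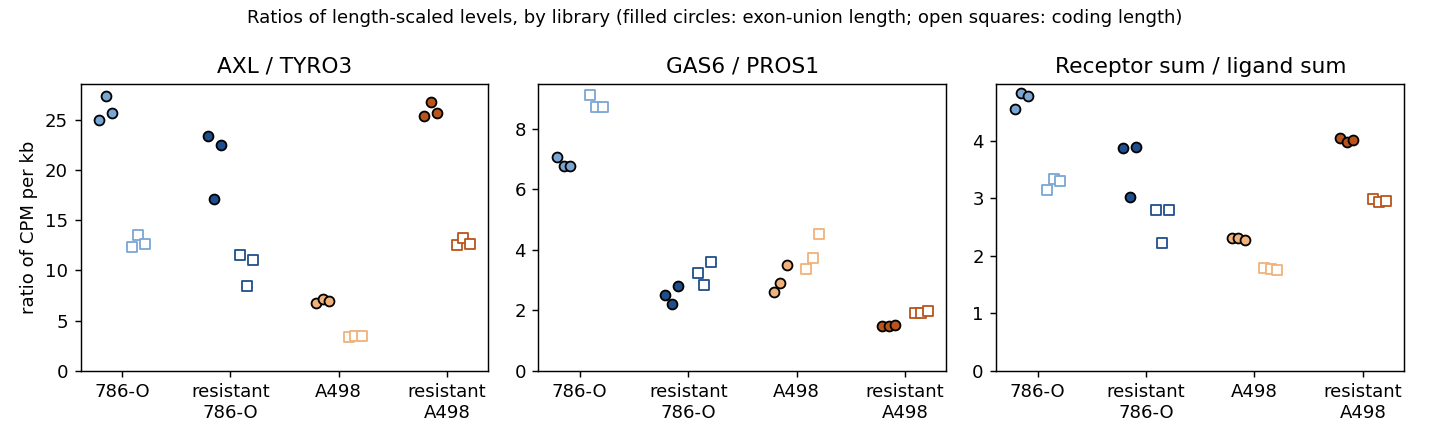
Ratios of levels in CPM per kilobase (y axis, linear) for AXL to TYRO3, GAS6 to PROS1 and the summed receptors to the summed ligands, by library and group (x axis); filled circles use exon length and open squares coding length. The ratio of GAS6 to PROS1 is highest in 786-O (6.87 with exon length) and lowest in resistant A498 (1.49), and the ratio of AXL to TYRO3 is lowest in A498 (6.94). The levels are without correction for GC content and gene length.

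Fold changes moved with the GC content of the genes. Genes were put in 5 bins of GC content with 3063 to 3068 genes each, which leaves out some of the genes tested. In resistant 786-O against parental 786-O, the median log2 fold change rose from -0.32 in the lowest bin to 0.29 in the highest. In resistant A498 against A498 it fell from 0.20 to -0.18. In resistant A498 against parental 786-O the medians of the lowest and the highest bin were -0.06 and 0.01. The GC fraction of the transcripts was 0.576 for AXL, 0.621 for GAS6, 0.553 for TYRO3, 0.470 for MERTK and 0.398 for PROS1.

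After this trend and that with gene length were removed, AXL was at 633 to 641 CPM in 786-O and at 538 to 742 CPM in resistant 786-O, and the groups overlapped. Its log2 fold change was 0.08 (adjusted p = 0.441), and with resistant 786-O replicate 2 also left out, a combination chosen after seeing the data, it was 0.22 (SE 0.03, adjusted p = 9.30e-08). GAS6 was at 153 to 160 CPM in 786-O and 149 to 159 CPM in resistant 786-O after removal, with a log2 fold change of -0.02 (adjusted p = 0.741). The rises of PROS1 (2.18), MERTK (0.91) and TYRO3 (0.38) in resistant 786-O held. Against A498, AXL (1.97), GAS6 (0.73) and PROS1 (1.19) remained higher in resistant A498, and TYRO3 was at -0.0025 (adjusted p = 0.967). Against 786-O, AXL remained higher in resistant A498 (0.30, adjusted p = 0.00792), as did MERTK (1.25), TYRO3 (0.21) and PROS1 (2.29), and GAS6 was lower (-0.13, adjusted p = 0.0120). The source of the trend was not tested.

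**Figure D4:**
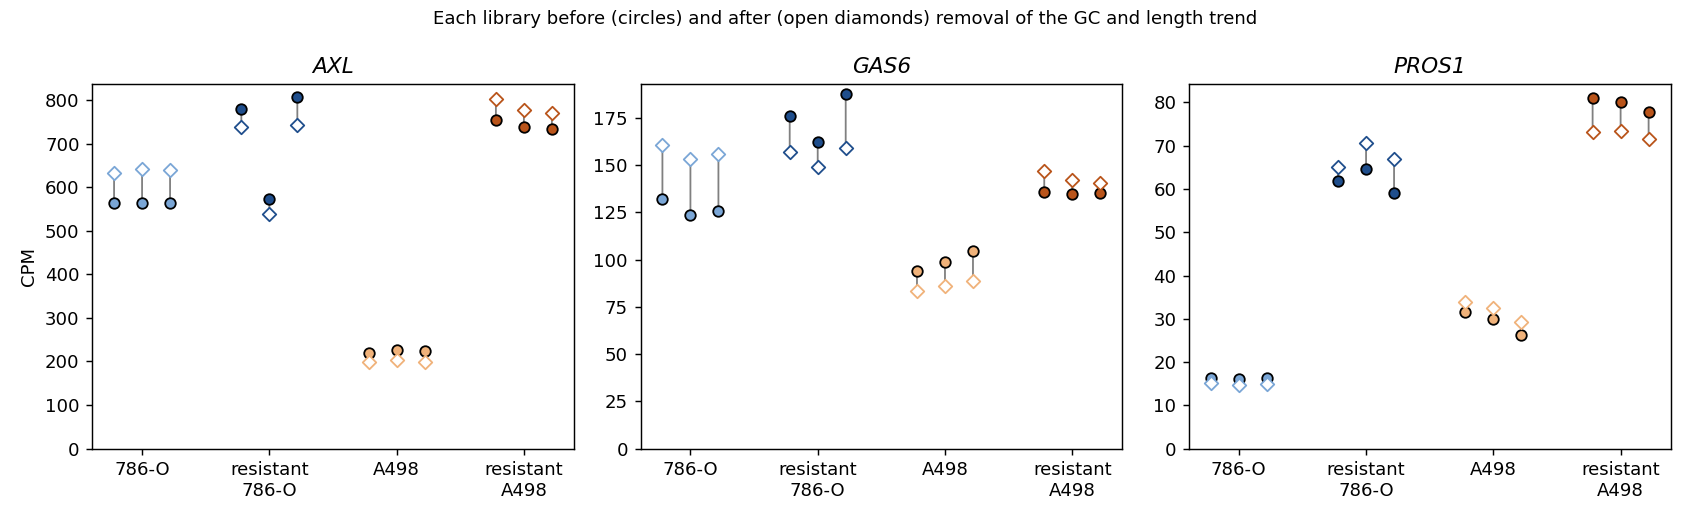
Level in CPM (y axis, linear, from 0) of AXL, GAS6 and PROS1 in each library by group (x axis), before (circles) and after (open diamonds) correction for GC content and gene length. After correction, GAS6 covers 153 to 160 CPM in 786-O and 149 to 159 CPM in resistant 786-O, whereas the PROS1 libraries of resistant 786-O stay above those of 786-O.

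Lists of other genes of the pathway, written with earlier results of these data known, were described by counts. Their values are without correction for GC content and gene length. The GC bin medians above ran from -0.32 to 0.29 in resistant 786-O against parental 786-O and from 0.20 to -0.18 in resistant A498 against A498. The part of this trend in list changes of similar size was not tested. For all of them, the shares of all genes called higher and lower were 35% and 33.5% in resistant 786-O against parental 786-O, 31.6% and 32.1% in resistant A498 against parental 786-O, and 36.3% and 36.4% in resistant A498 against A498, and counts near these shares are no result about a list. Of 8 genes for the carboxylation and processing of Gla proteins, 5 fell and 1 rose in resistant 786-O against parental 786-O (median log2 fold change -0.54, median of all genes 0.03), and 5 fell and 2 rose in resistant A498 against parental 786-O (median -0.52). GGCX, the carboxylase that modifies the Gla domains of GAS6 and PROS1, had 120 ± 2.82 CPM in 786-O, 80.9 ± 2.40 in resistant 786-O, 139 ± 0.594 in A498 and 84.1 ± 0.624 in resistant A498 (SD, n = 3). It fell in resistant 786-O against parental 786-O (-0.56, adjusted p = 1.23e-08) and in resistant A498 against A498 (-0.72, adjusted p = 4.96e-10) and against parental 786-O (-0.51, adjusted p = 4.90e-08). VKORC1L1, which recycles vitamin K, fell from 200 to 86.3 CPM in resistant 786-O (-1.21) and was at 102 CPM in resistant A498, with a log2 fold change of -0.97 against parental 786-O and no called difference from A498 (-0.04). FURIN, a protease that removes propeptides, was at 193 CPM in 786-O, 286 in resistant 786-O, 74.0 in A498 and 213 in resistant A498. It rose in resistant 786-O (0.57) and in resistant A498 against A498 (1.52), but by only 0.14 in resistant A498 against parental 786-O. In resistant A498 against A498, 3 of the 8 genes rose and 3 fell.

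Of 12 other genes for Gla proteins, 5 were tested, of which 2 rose and 2 fell in resistant 786-O and 3 rose in resistant A498 against parental 786-O and 2 against A498. PRRG2, F2 and F10, which are among the 5, were below 1 CPM on average in every group. The transmembrane Gla protein PRRG1 fell in resistant 786-O (-0.77), was not called in resistant A498 against parental 786-O (-0.12) and rose against A498 (1.36). PRRG4, another of these, rose in resistant A498 against parental 786-O (0.84) but was not called against A498 (-0.14). Of the other reported ligands of MERTK and TYRO3, LGALS3 (galectin 3) was at 33.3 CPM in 786-O, 58.2 in resistant 786-O, 122 in A498 and 36.5 in resistant A498. Its log2 fold changes were 0.81 in resistant 786-O against parental 786-O and -1.74 in resistant A498 against A498. In resistant A498 against parental 786-O it was 0.13 and not called.

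Of 7 genes for receptor shedding and turnover, 3 rose and 2 fell in resistant 786-O (median 0.14), 6 rose and 1 fell in resistant A498 against parental 786-O (median 0.49), and 5 rose and 2 fell against A498 (median 0.61). ADAM10, a protease that sheds the AXL ectodomain, was at 219 CPM in 786-O, 187 in resistant 786-O, 190 in A498 and 309 in resistant A498. It fell in resistant 786-O (-0.23) and rose in resistant A498 against parental 786-O (0.50) and against A498 (0.70). ADAM17, which sheds MERTK, had log2 fold changes of -0.18 in resistant 786-O, 0.17 in resistant A498 against parental 786-O and -0.61 against A498, all called. RHBDF1, a cofactor of ADAM17, rose from 29.7 to 109 CPM in resistant 786-O (1.88) and was at 70.5 CPM in resistant A498 (1.25 against parental 786-O and 0.68 against A498). Of 8 tested adaptors and kinases that bind TAM receptors, 3 rose and 4 fell in resistant 786-O, 3 rose and 3 fell in resistant A498 against parental 786-O, and 4 rose and 3 fell against A498. The largest called change against parental 786-O was that of TNS2, a tensin (-0.59 in resistant 786-O and -0.81 in resistant A498, both against parental 786-O).

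Of 5 receptors reported to pair with AXL, 4 rose and 1 fell against parental 786-O in both resistant lines (medians 0.93 and 0.89). In resistant A498 against A498, 2 rose and 2 fell (median -0.32). ERBB3, among the rises against parental 786-O, was near the floor, with 1 to 6 counts in 786-O libraries, 14 to 25 in resistant 786-O and 8 to 13 in resistant A498. EGFR was at 301 CPM in 786-O, 615 in resistant 786-O, 380 in A498 and 556 in resistant A498, and rose in resistant 786-O (1.03) and in resistant A498 against parental 786-O (0.89) and against A498 (0.55). ERBB2 was at 65.4, 125, 61.5 and 132 CPM in the same order, with log2 fold changes of 0.93, 1.01 and 1.10. MET, the hepatocyte growth factor receptor, fell in these 3 comparisons, with log2 fold changes of -0.73, -0.88 and -0.64. Of 5 genes of the feedback of TAM receptors on cytokine signalling, 2 rose and 1 fell in resistant 786-O, 1 rose and 1 fell in resistant A498 against parental 786-O, and 2 rose and 3 fell against A498.

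Of 6 genes for the exposure of phosphatidylserine, 2 rose and 3 fell in resistant 786-O, 2 rose and 1 fell in resistant A498 against parental 786-O, and 4 rose against A498. PLSCR1, a phospholipid scramblase, was at 29.2 CPM in 786-O, 137 in resistant 786-O, 86.4 in A498 and 195 in resistant A498, and rose in resistant 786-O (2.22) and in resistant A498 against parental 786-O (2.74) and against A498 (1.18). Of 9 other phosphatidylserine receptors and bridging proteins, 6 rose and 1 fell in resistant 786-O (median 0.31), 5 rose and 1 fell in resistant A498 against parental 786-O (median 0.64), and 4 rose and 3 fell against A498 (median 0.30). Among the rises against parental 786-O, ADGRB1 had 0 to 1 counts in 786-O libraries, 9 to 18 in resistant 786-O and 2 to 5 in resistant A498. The rises in resistant 786-O also included STAB2 (0.28 to 0.53 CPM) and TIMD4 (1.02 to 1.67 CPM). MFGE8, which bridges phosphatidylserine to integrins, was at 45.3, 161, 201 and 248 CPM in the order of the groups above, with log2 fold changes of 1.83, 2.45 and 0.30. Of 7 genes of the engulfment machinery, 2 rose and 2 fell in resistant 786-O, 4 rose and 2 fell in resistant A498 against parental 786-O, and 3 rose and 4 fell against A498. ELMO1, among the rises against parental 786-O, had 0 to 16 counts per library in 786-O and both resistant lines. RAC1, a GTPase, fell by 0.35 in resistant 786-O (-0.35), and the adaptor BCAR1 had a log2 fold change of -0.43 in resistant A498 against parental 786-O.

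**Figure D5:**
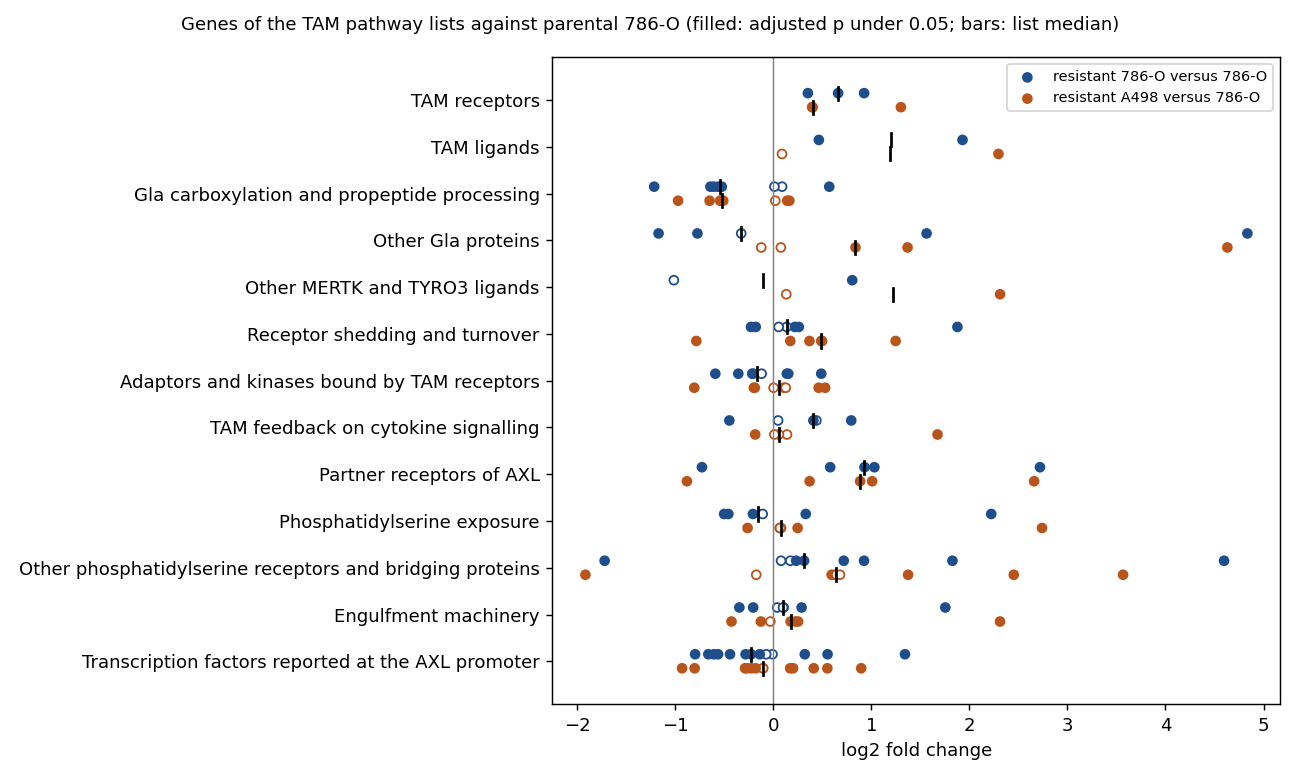
Log2 fold change (x axis) of each tested gene of the TAM lists (y axis) in resistant 786-O (blue) and resistant A498 (orange), both against parental 786-O, whose libraries the comparisons share; filled points have an adjusted p under 0.05 and bars are list medians. The genes for Gla carboxylation lie mostly to the left (medians -0.54 and -0.52), and the partner receptors of AXL mostly to the right (medians 0.93 and 0.89). ERBB3, among the latter, had 1 to 25 counts per library.

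Of 13 transcription factors reported for the AXL promoter, 3 rose and 8 fell in resistant 786-O against parental 786-O (median -0.23), 5 rose and 7 fell in resistant A498 against parental 786-O (median -0.10), and 5 rose and 6 fell against A498 (median -0.01). FOSL1, an AP-1 subunit, was at 308 CPM in 786-O, 194 in resistant 786-O, 120 in A498 and 161 in resistant A498. It fell against parental 786-O in resistant 786-O (-0.66) and resistant A498 (-0.93), and rose in resistant A498 against A498 (0.43). MZF1, a zinc finger factor, was at 4.77 CPM in 786-O, 12.1 in resistant 786-O, 13.4 in A498 and 8.90 in resistant A498. Against parental 786-O it rose in resistant 786-O (1.34) and resistant A498 (0.90), and it fell in resistant A498 against A498 (-0.59). EPAS1, which encodes HIF-2α, was at 161 CPM in 786-O, 202 in resistant 786-O, 160 in A498 and 237 in resistant A498, and rose in resistant 786-O (0.32) and in resistant A498 against parental 786-O (0.55) and against A498 (0.57). HIF1A, which encodes HIF-1α, was at 10.8 ± 0.634 CPM in 786-O, 9.19 ± 0.606 in resistant 786-O, 305 ± 11.3 in A498 and 8.79 ± 0.335 in resistant A498 (SD, n = 3), and so separated A498 from the 3 other groups.

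Across the 12 libraries, which share their group structure, the genes whose log2 CPM followed a member most closely were listed by Pearson's r over 11863 genes of at least 5 CPM (11864 for MERTK), as a description. AXL was followed most closely by SLC35E2B (r = 0.998), SEMA5A (0.997), STRBP (0.996), KAZN (0.995) and MRAS (0.995), and 1146 genes exceeded 0.9 with it. For PROS1 they were PARP9 (0.998), B2M (0.997), SYK (0.995), HUS1 (0.995) and SAMHD1 (0.994), and for GAS6 SLC2A8 (0.997), NOTCH1 (0.988), ARRDC1 (0.987), HCG4 (0.985) and AGPAT2 (0.984). TYRO3 was followed by EGFL7, IGFBP3, GRINA, HS1BP3 and SLC12A7 (r from 0.982 to 0.984), and MERTK by CHST9, BOD1L1, CBS, PCLO and ANKFY1 (r from 0.969 to 0.979). Among the members themselves, r was highest for AXL with GAS6 (0.85) and for MERTK with TYRO3 (0.76), and that of AXL with TYRO3 was -0.18. The points are 4 groups of 3 libraries, so these values share the differences between groups.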

How the data were processed

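mRNA was sequenced in 12 libraries of 4 groups, grouped by their labels. The authors deposited raw counts per gene, made with Trimmomatic 0.36.6, HISAT2 2.1.0 (GRCh38) and featureCounts 1.6.3. Here, edgeR 4.0.16 in R 4.3.3 was used with filterByExpr (19929 genes), TMM and a single quasi-likelihood fit of 4 group means to all 12 libraries, since batch and group coincide. P-values were adjusted by Benjamini-Hochberg over all genes tested, and called at 0.05. The prior count for log2 fold changes was 0.125. Levels are CPM, and SD is over 3 libraries. Dependence on GC content and length (GENCODE version 44, known for 99.7% of genes) was removed by a spline offset per library.

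The 5 genes and all lists were chosen with earlier results of these data known. Besides the members, list genes were named by the largest called change against parental 786-O with at least 1 CPM, together with GGCX, ADAM10, ADAM17, FOSL1, EPAS1 and HIF1A. FURIN, MET, ENSG00000269652, TUB, ERBB3, ADGRB1, STAB2, TIMD4, ELMO1, PRRG2, F2 and F10 were added after their values were seen. A gene that this rule names is not reported here. Alternatives were DESeq2 1.42.0, scaling by library size alone, other count filters, fits of 2 groups only, the replicate number as a block, a prior count of 2, thinning to the smallest library, removal of the GC and length trend, the study's own test of raw counts, and each library left out. On simulated data for resistant 786-O against parental 786-O, 143 of 200 genes changed 1.5-fold (17522 genes) and 192 of 200 changed 2-fold (17515 genes) were recovered. False calls numbered 10 and 18, respectively. The simulation fitted these 2 groups only, not the 12 libraries of the main fit.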

Additional observations from a re-analysis of the deposited data

Results flagged for a closer look

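Differences between the changes in resistant A498 (against A498) and in resistant 786-O (against parental 786-O) passed the test of the difference itself for 4 members (edgeR quasi-likelihood test, Benjamini-Hochberg adjusted, 3 libraries in each of 4 groups). The AXL change was larger in resistant A498 by 1.38 on the log2 scale, and AXL rose in both. With the GC and length trend removed, however, the AXL rise in resistant 786-O was 0.08 and not called. The MERTK change was smaller in resistant A498, with a difference of -0.83, and MERTK rose in resistant 786-O while no difference from A498 was detected. The TYRO3 change also differed by -0.83, with a rise in resistant 786-O and a small decrease in resistant A498. That decrease was -0.0025 and not called with the trend removed. The PROS1 change differed by -0.48, with rises in both. These differences kept their direction and call with each library left out and with the GC and length trend removed, where they were 1.89 for AXL, -0.95 for MERTK, -0.38 for TYRO3 and -0.99 for PROS1. For GAS6 the difference was not called (-0.02) but was 0.75 and called with that trend removed. Each difference is the sum of 2 parts, resistant A498 against resistant 786-O and 786-O against A498. These parts were 0.04 and 1.34 for AXL, 0.38 and -1.20 for MERTK, -0.26 and -0.57 for TYRO3, and 0.37 and -0.85 for PROS1. In resistant A498 against A498, the part of the drug selection cannot be told apart from that of these libraries' 786-O-like gene levels.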

How the results depend on the processing

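Values are log2 fold changes with the call by edgeR unless stated. The PROS1 rises and the AXL rise in resistant A498 against A498 kept their direction and call under all alternatives run, from 1.19 to 2.45 for PROS1 and from 1.56 to 1.97 for AXL. Scaling by library size alone, which moved all genes of resistant 786-O and of resistant A498 against parental 786-O by 0.14 and 0.15, put TYRO3 in resistant A498 against A498 at -0.10 (call lost) and GAS6 in resistant A498 against parental 786-O at 0.24 (called). Without a count filter, TYRO3 in resistant A498 against A498 was -0.13 (call lost) and the GAS6 difference between the changes 0.032 (reversed). GAS6 in resistant A498 against parental 786-O was called at 0.13 with at least 10 counts in every library and at 0.13 with only those 2 groups fitted. With the GC and length trend removed, the AXL call in resistant 786-O was lost (0.078), as was TYRO3 in resistant A498 against A498 (-0.0025), and reversals were GAS6 in resistant 786-O (-0.016), MERTK in resistant A498 against A498 (-0.038), GAS6 in resistant A498 against parental 786-O (-0.13) and the GAS6 difference (0.75, called). In resistant A498 against resistant 786-O it ended the calls of PROS1 (0.11) and MERTK (0.33), and DESeq2 (0.39), no count filter (0.37) and the fit of these groups only (0.37) ended that of MERTK. With that trend removed and resistant 786-O replicate 2 left out, added after seeing the data, the corresponding values were 0.011 for GAS6 in resistant 786-O (call lost), -0.045 for MERTK and -0.0014 for TYRO3 against A498, -0.13 for GAS6 against parental 786-O and 0.72 for the GAS6 difference.

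The study's own test of raw counts, which also carries the difference in depth between libraries, called 8211 genes in resistant 786-O against parental 786-O and 6222 in resistant A498 against A498 at an unadjusted threshold, against 13643 and 14496. Under it the calls of AXL in resistant 786-O (0.54), TYRO3 (-0.35) and GAS6 (0.27) in resistant A498 against A498 and MERTK in resistant A498 against parental 786-O (0.57) were lost, and MERTK in resistant A498 against A498 (-0.094), AXL (-0.33), TYRO3 (-0.33) and GAS6 (-0.64) in resistant A498 against parental 786-O, and AXL (-0.88), MERTK (-0.54) and PROS1 (-0.55) in resistant A498 against resistant 786-O reversed. Between the parental lines, 786-O against A498, the calls of MERTK (-0.67), TYRO3 (-0.024) and PROS1 (-0.31) were also lost under that test. With each library left out in turn, TYRO3 in resistant A498 against A498 ranged from -0.18 to -0.11 (call lost without resistant A498 replicate 2 or 3), GAS6 in resistant A498 against parental 786-O from 0.065 to 0.12 (called without resistant 786-O replicate 2 or 3), the GAS6 difference from -0.059 to 0.045 (6 reversals), AXL in resistant A498 against resistant 786-O from -0.10 to 0.14 (reversed without resistant 786-O replicate 2) and MERTK there from 0.27 to 0.44 (call lost in 6). Beyond scaling and depth, the cause of these changes was not tested.

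Same-numbered libraries did not deviate together (r from -0.18 to 0.10 over 10085 genes, below 0.1 in 6 of 6 pairs), so the numbers were not taken as pairs. With the replicate number as a block, 13497 genes were called in resistant 786-O against parental 786-O, 14389 in resistant A498 against A498 and 12567 in resistant A498 against parental 786-O, and no call of a member changed. Per-length levels with RefSeq coding lengths were not run, and GENCODE coding lengths, added after seeing the data, were used in their place. The study's test and the fit of 2 groups give no difference between the changes. MERTK, at 53 to 162 counts per library, is limited most by depth.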
